A study of Mus musculus with 6 samples.

Results

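Titin and 8 proteins that anchor it or work beside it at the Z-disc and the M-band were chosen by gene symbol: Ttn, Tcap, Actn2, Myoz2, Ldb3, Nebl, Myom1, Myom2 and Des. They were 9 of the 54093 genes in the table, and all 9 were among the 12627 genes that passed the filter of a mean of at least 1 FPKM. FPKM are fragments per kilobase of gene length, divided by a size of each library that can differ from its fragment total. RNA was taken from right atria (RAs) of wild-type (WT) C57BL/6 mice at postnatal day 21 (P21). In the volume overload (VO) group, a fistula between the abdominal aorta and the inferior vena cava (ACF) was made at P7, and the sham group was operated on at the same age without a fistula. The pups were male or female and were randomized, and each group had 3 RNA-seq libraries, named here sham 1 to sham 3 and VO 1 to VO 3. The sources used here do not say whether each library came from a separate animal or from pooled atria, so p-values measure only the spread between these libraries, which may be technical.

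In the sarcomere, titin runs from the Z-disc, where the thin filaments of neighbouring sarcomeres are tied together, to the M-band, where the thick filaments are linked. It acts as a molecular spring and as a ruler for the thick filament. Alpha-actinin, telethonin and cypher belong to the Z-disc, myomesins crosslink titin and myosin at the M-band, and desmin filaments connect Z-discs with each other and with the cell membrane. These connections are assembled as atrial and ventricular cardiomyocytes mature, and the study asked whether VO hinders that maturation in the RA.

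All 9 scaffold transcripts had a lower mean in VO than in sham RAs, with VO means between 64.2% of the sham mean for Des and 92.4% for Myom2. In 4 of the 9, namely Ldb3, Myom1, Des and Actn2, the unadjusted p-value of limma's moderated test was below 0.05. Among all 12627 tested genes 8.08% were lower at that threshold and 3.89% were higher, and no scaffold gene was among the higher. No scaffold gene passed an adjusted p of 0.05 in limma, against 0.00792% of the tested genes, which is 1 gene. None did with limma-voom on the recovered fragments. The study, which used DESeq2 on counts, reports far more genes with an adjusted p below 0.05. DESeq2 was not run here. With limma-voom, 5 scaffold genes were lower with an unadjusted p below 0.05, against 8.47% of all tested genes. The 3 VO values lay below all 3 sham values in 6 of the 9 genes, against 12.9% of the tested genes. Highly expressed genes were more often lower in general: among the 4264 tested genes with a mean of at least 10 FPKM, 13.8% were lower at an unadjusted p below 0.05 and 22.1% were lower without overlap. The median log2 fold change was -0.44 over the 9 genes, -0.11 over those 4264 genes and -0.01 over all tested genes. In bulk tissue, fewer cardiomyocytes and less of a transcript in each cardiomyocyte cannot be told apart.

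**Figure D1:**
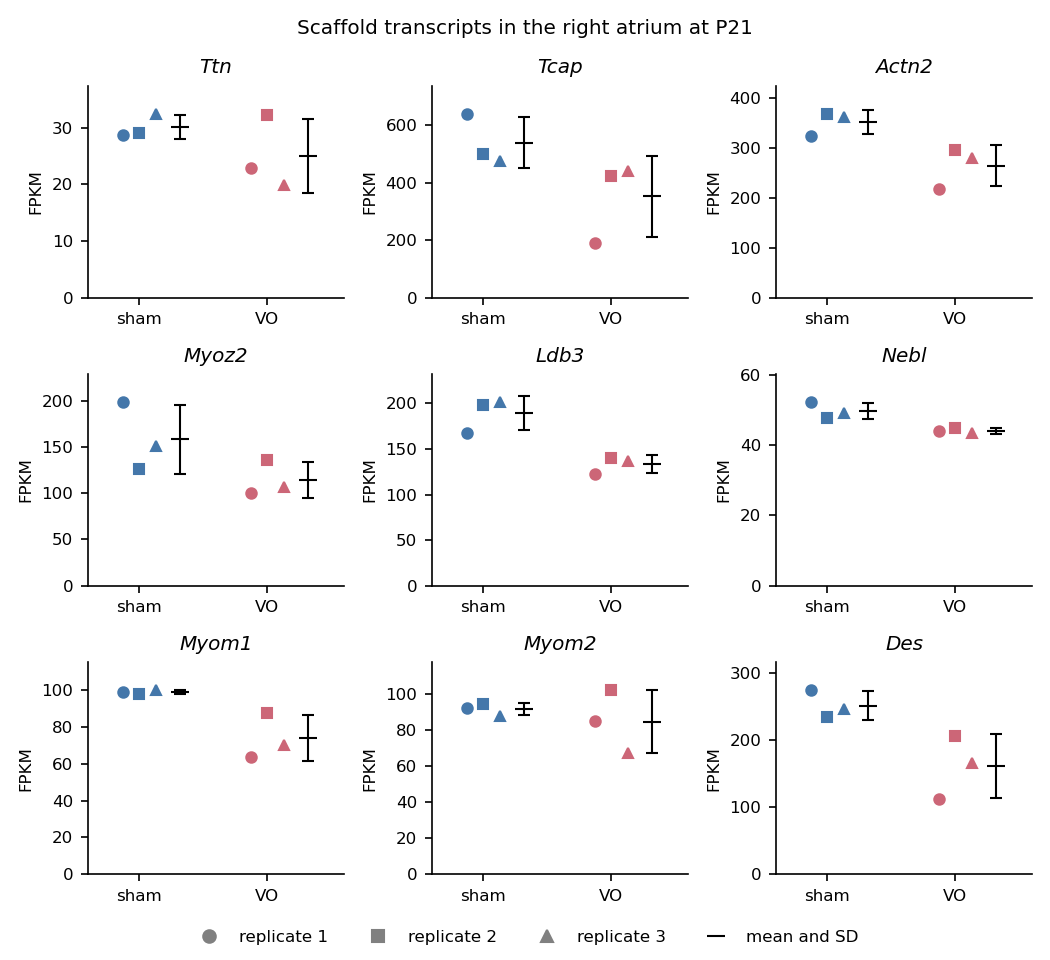
FPKM of each scaffold gene (vertical axes from 0, each with its own scale) in the 3 sham and the 3 VO libraries, with a symbol for each replicate number and the mean with its SD in black. Ldb3, Myom1, Actn2, Des, Tcap and Nebl do not overlap between the groups, while Ttn, Myoz2 and Myom2 do, and VO 2 is the highest VO library in every panel but that of Tcap.

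The promoters of 7 of the 9 genes were found in RefSeq sequences of GRCm38.p6, and the 250 bases before each annotated start were searched on both strands. Muscle genes are known to be bound by serum response factor at CArG boxes. They are also bound by MEF2 factors at sites rich in A and T. Whether such sites have a part in the VO difference was not tested. A CArG box was present in at least 1 upstream window of 3 genes (Ldb3, Myom1 and Nebl), against 1.62% of the 27025 genes with such windows. A MEF2 site was present in 2 genes (Ttn and Myoz2), against 3.42% of all genes. The E-box CANNTG was present in 6 genes (69.3% of all genes), the M-CAT element CATTCC in 1 gene, Nebl (14.4%), and the TATA box TATAAA in none (14.3%). A match is a description of the letters and not a binding site. The Ttn, Ldb3 and Myom1 stretches are printed 5′ to 3′ on the gene's strand, with the MEF2 site of Ttn and the CArG boxes of Ldb3 and Myom1 in capitals, and without bases that lie in an annotated exon of the gene.
Ttn, chr2:76982548-76982797, reverse strand: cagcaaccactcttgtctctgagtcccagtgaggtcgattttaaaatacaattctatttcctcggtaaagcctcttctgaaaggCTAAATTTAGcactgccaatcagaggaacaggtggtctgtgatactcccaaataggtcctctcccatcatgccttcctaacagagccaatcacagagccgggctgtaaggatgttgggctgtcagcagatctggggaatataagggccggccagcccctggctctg
Ldb3, chr14:34588683-34588931, reverse strand: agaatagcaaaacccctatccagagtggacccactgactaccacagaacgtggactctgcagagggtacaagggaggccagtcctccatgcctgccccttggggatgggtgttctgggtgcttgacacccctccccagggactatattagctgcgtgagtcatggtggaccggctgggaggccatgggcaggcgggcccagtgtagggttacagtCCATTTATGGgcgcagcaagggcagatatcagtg
Myom1, chr17:71019307-71019520, forward strand: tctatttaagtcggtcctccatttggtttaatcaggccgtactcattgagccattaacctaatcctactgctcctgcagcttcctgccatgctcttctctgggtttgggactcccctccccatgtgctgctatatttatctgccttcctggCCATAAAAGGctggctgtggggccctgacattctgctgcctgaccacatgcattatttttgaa
The match in Ttn lay 166 to 157 bases before the RefSeq start. That in Ldb3 lay 35 to 26 bases before the first of its RefSeq starts and 109 to 100 bases before the next. That in Myom1 lay 99 to 90 bases before its RefSeq start, which is inside the gene as the table bounds it, far downstream of 71002633. In Myoz2 the MEF2 match CTATATATAG (123035011 to 123035020) lay 33 to 24 bases before the RefSeq start. It lay partly inside the gene as the table bounds it, which ends at 123035015. In Nebl the CArG match CCTAAATTGG lay 162 to 153 bases before one of several annotated starts. Its window (17462857 to 17463106) lay far inside the gene, and the other Nebl windows held no CArG box. Of the 5 genes with either match, Ldb3 and Myom1 had an unadjusted p below 0.05 in limma, while Ttn, Myoz2 and Nebl did not. Actn2 and Des, whose windows held neither a CArG box nor a MEF2 site, also had an unadjusted p below 0.05.

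Ttn (chromosome 2, 76703980 to 76982547 of GRCm38, reverse strand) encodes titin. It was read at 28.7, 29.0 and 32.5 FPKM in sham 1 to sham 3 and at 22.8, 32.3 and 19.9 FPKM in VO 1 to VO 3. VO 1 and VO 3 lay below every sham library, whereas VO 2 lay within the sham range. On the log2 scale VO minus sham was -0.29, with a standard error of 0.18 and a 95% interval of -0.73 to 0.14 (adjusted p = 0.50, limma). It was -0.49 without VO 2, with an unadjusted p of 0.0083 in limma, and -0.14 without VO 3. Per length Ttn was the lowest of the 9 genes in both groups. Its length in the table is 116825 bases, which joins the exons of 25 annotated transcripts, so an atrial isoform that leaves exons out has a higher level per base than the FPKM gives. In fragments Ttn was the largest of the 9, with 0.317%, 0.339% and 0.368% of all fragments on genes in sham and 0.287%, 0.386% and 0.234% in VO. It was counted with 38174 to 61847 fragments per library.

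Tcap encodes telethonin, which caps the N-termini of titin at the Z-disc, and lies on chromosome 11 (98383811 to 98384953, forward strand). Per length it had the highest mean of the 9 genes in both groups, although in VO 1 it lay below Actn2 (219 FPKM). Tcap was read at 641, 502 and 477 FPKM in sham 1 to sham 3 and 191, 425 and 442 FPKM in VO 1 to VO 3. The groups did not overlap, but the distance between them came mostly from sham 1 at the top and VO 1 at the bottom. VO differed from sham by -0.70 on the log2 scale, with a standard error of 0.33 and a 95% interval of -1.49 to 0.089 (adjusted p = 0.43, limma), and it was -0.30 without VO 1. Tcap is also the shortest of the 9 genes, with 948 bases. Over the 9 genes, longer genes had the smaller differences (Spearman's rho of gene length and log2 fold change 0.75), and rho was 0.34 over the 4264 tested genes with a mean of at least 10 FPKM. These are correlations across genes, which share the 6 libraries. Among the shortest 852 of the tested genes with a mean of at least 10 FPKM (57 to 1835 bases), the median centred log2 value was 0.38 in sham 1, -0.34 in VO 1 and between -0.07 and 0.02 in the other 4 libraries. With the trend with gene length removed in each library, the Tcap log2 fold change was -0.54 (limma's adjusted p = 0.43). The Tcap to Ttn ratio was 22.2, 17.2 and 14.6 in sham and 8.32, 13.1 and 22.2 in VO. Its groups overlapped (difference of log2 ratios -0.41 with all libraries and -0.061 without VO 1, exact permutation p = 0.4 with all), and the smallest p that 3 libraries against 3 can give is 0.1.

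Actn2 encodes alpha-actinin-2, the crosslinker of thin filaments in the Z-disc, and lies on chromosome 13 (12269426 to 12340760, reverse strand). It was read at 325, 370 and 363 FPKM in sham and at 219, 296 and 280 FPKM in VO. Every VO library lay below every sham library. Its log2 fold change came to -0.42, with a standard error of 0.16 and a 95% interval of -0.79 to -0.057 (unadjusted p = 0.029, adjusted p = 0.41, limma). Without VO 1 it was -0.29. Actn2 and Myom1 were picked by the study from its own sequencing results for a follow-up by qRT-PCR, so their direction here is not independent evidence. The study reports both as significantly lower in VO by qRT-PCR.

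Ldb3 (chromosome 14, 34526603 to 34588682, reverse strand) encodes cypher, also called ZASP, a PDZ and LIM domain protein that binds alpha-actinin. It had the smallest p-value of the 9 genes. Its FPKM were 168.1, 198.8 and 201.8 in sham and 122.5, 140.7 and 137.3 in VO. The groups did not overlap, and the VO libraries lay close together, with a coefficient of variation of 7.26%. In the fit VO lay at -0.50 relative to sham (log2), with a standard error of 0.13 and a 95% interval of -0.80 to -0.20 (unadjusted p = 0.0054, adjusted p = 0.37, limma). It stayed between -0.59 and -0.44 with any 1 library left out, and its unadjusted p was below 0.05 in 19 of the 21 alternative settings, the exceptions being quantile normalization and scaling to other cardiomyocyte genes.

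Myoz2 encodes calsarcin-1, which binds alpha-actinin and calcineurin at the Z-disc, and lies on chromosome 3 (123006206 to 123035015, reverse strand). Its FPKM were 199, 126 and 151 in sham and 100, 136 and 107 in VO. Sham 1 stood above the other libraries, and VO 2 lay above sham 2, so the groups overlapped. On the log2 scale VO minus sham was -0.45, with a standard error of 0.20 and a 95% interval of -0.93 to 0.02 (adjusted p = 0.41, limma), and without sham 1 it was -0.28. Nebl (chromosome 2, 17343909 to 17731464, reverse strand) encodes nebulette, a Z-disc protein of the nebulin family that reaches along the thin filament. It was the steadiest in VO, at 52.3, 47.8 and 49.2 FPKM in sham and 44.1, 45.0 and 43.3 FPKM in VO. The groups were separate, but the difference was small, with a log2 fold change of -0.17 (95% interval -0.40 to 0.051, adjusted p = 0.46 by limma, SE 0.095). With the trend with gene length removed it was -0.28, with an unadjusted p of 0.045 and an adjusted p of 0.40 in limma. The gene-level value joins nebulette with the shorter LIM-nebulette, which starts within the same locus.

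Myom1 (chromosome 17, 71002633 to 71126856, forward strand) encodes myomesin-1, which crosslinks myosin and titin at the M-band. Its FPKM were 98.9, 98.2 and 100.2 in sham and 63.5, 87.8 and 70.3 in VO. The sham libraries were nearly equal, with a coefficient of variation of 1.01%, while that of the VO libraries was 17.0%, and the groups did not overlap. VO differed from sham by -0.44 on the log2 scale, with a standard error of 0.14 and a 95% interval of -0.77 to -0.11 (unadjusted p = 0.017, adjusted p = 0.40, limma). An opposite-strand gene, Myl12a, shares 207 exon bases with Myom1, or 1.98% of its exons, and the strand setting of the counting is not given in the sources used here. Myom2, the gene of myomesin-2 or M-protein, lies on chromosome 8 (15057653 to 15133541, forward strand). It was read at 92.2, 94.4 and 87.7 FPKM in sham and at 84.6, 102.0 and 66.8 FPKM in VO. VO 2 was the highest of all 6 libraries and VO 3 the lowest. Its log2 fold change came to -0.13, with a standard error of 0.16 and a 95% interval of -0.52 to 0.25 (adjusted p = 0.71, limma), and it was 0.023 without VO 3.

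The Myom2 to Myom1 ratio was 0.933, 0.961 and 0.876 in sham and 1.33, 1.16 and 0.950 in VO. VO 1 and VO 2 lay above the sham libraries, while VO 3 lay within their range (difference of log2 ratios 0.30, exact permutation p = 0.2). Without VO 1 the difference was 0.19. In sham RAs Myom1 exceeded Myom2 in every library, and in VO their ranges overlapped with the higher mean for Myom2. This was 1 of 8 ratios between members that were compared. The other 7 differed by -0.41 to 0.25 on the log2 scale with overlapping groups, and the adjusted p over the 8 exact permutation tests was at least 0.53. A single scaling factor per library cancels in such a ratio, whereas quantile normalization or removal of the length trend does not.

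Des encodes desmin, the intermediate filament protein of muscle, and lies on chromosome 1 (75360329 to 75368579, forward strand). Its FPKM were 275, 234 and 246 in sham and 112, 206 and 166 in VO. Every VO library lay below every sham library, VO 1 by the most. In the fit VO lay at -0.68 relative to sham (log2), with a standard error of 0.23 and a 95% interval of -1.21 to -0.15 (unadjusted p = 0.019, adjusted p = 0.40, limma). It was -0.44 without VO 1 and -0.88 without VO 2.

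**Figure D2:**
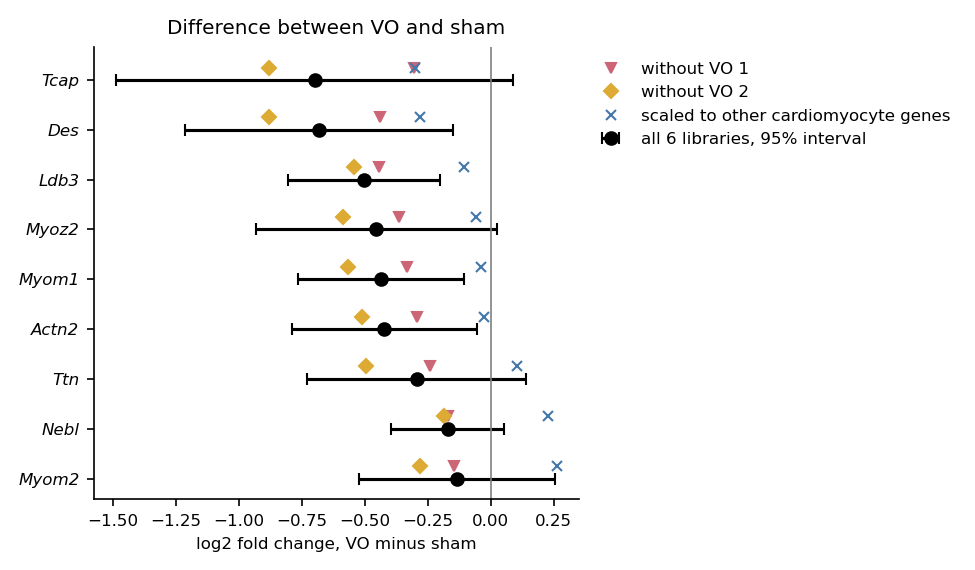
Log2 fold change of each scaffold gene, VO minus sham (horizontal axis), with limma's 95% interval from all 6 libraries in black, and the value without VO 1, without VO 2 and with libraries scaled to cardiomyocyte genes outside the sarcomere. The intervals of Ldb3, Myom1, Des and Actn2 lie below 0, and with the cardiomyocyte scaling Ttn (0.10), Nebl (0.23) and Myom2 (0.26) lie above 0.

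The order of levels in sham was Tcap, Actn2, Des, Ldb3, Myoz2, Myom1, Myom2, Nebl and Ttn, and only the ranges of Ldb3 and Myoz2 overlapped among neighbours. In VO the same order held except that Myom2 stood above Myom1. There the neighbours overlapped from Tcap to Actn2 and all the way from Des to Myom1, and only Actn2 and Des, Myom1 and Nebl, and Nebl and Ttn were separate. The VO libraries were not alike. VO 2 was the highest of the 3 for 8 genes, VO 1 was the lowest for 6 and VO 3 was the lowest for Ttn, Myom2 and Nebl. The 9 genes together took 0.998%, 1.04% and 1.05% of all fragments in sham 1 to sham 3 and 0.783%, 1.01% and 0.768% in VO 1 to VO 3, so VO 2 lay within the sham range by this measure. Over the 6 libraries, Pearson's r between pairs of members ran from 0.17 for Myom2 and Tcap to 0.96 for Myom1 and Des. The points share the group difference and the scaling of each library, and the values are given as a description.

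Scaffold levels were then set against 15 cardiomyocyte genes outside the sarcomere, such as Ryr2, Atp2a2 and Casq2. The summed level of these 15 genes was 7525 to 9590 FPKM in sham and 5071 to 7385 FPKM in VO. When the libraries were scaled to this sum, the median log2 fold change was -0.039 over the 9 scaffold genes and 0.38 over all tested genes. A single factor per library shifts all genes alike, and the sum is carried by a few very high genes. Gene by gene, the 15 genes had a median of -0.27 before this scaling, against -0.44 for the scaffold. Of the 9 genes 6 were then lower, none with an unadjusted p below 0.05, and 0.855% of all tested genes were lower at that threshold. Des was the gene that stood apart from these 15 genes in mean log2 level, at -0.07, -0.10 and -0.06 in sham and -0.66, -0.23 and -0.41 in VO. Its groups did not overlap (difference -0.36, exact permutation p = 0.1, which is the smallest possible, and adjusted p = 0.51 over the 9 genes). The other 8 genes overlapped, with differences from -0.37 for Tcap to 0.19 for Myom2.

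**Figure D3:**
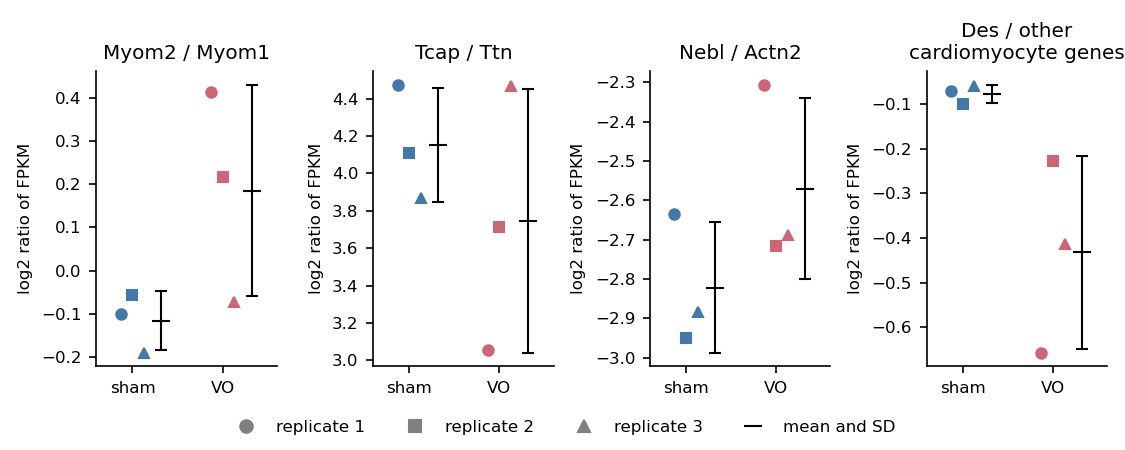
Log2 ratios of FPKM in each library (each vertical axis has its own scale and does not start at 0), for Myom2 to Myom1, Tcap to Ttn, Nebl to Actn2, and Des to the mean of 15 cardiomyocyte genes outside the sarcomere, with the mean and SD in black. The VO libraries spread more widely than the sham libraries in all 4, and the groups are separate for Des only.

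Markers of other cells also differed between the libraries. The 6 leukocyte markers, among them Ptprc and Csf1r, summed to 182 to 244 FPKM in sham and 714, 215 and 262 FPKM in VO 1 to VO 3, and all 6 had a higher mean in VO. The 7 fibroblast markers summed to 851 to 895 FPKM in sham and 1278, 887 and 1112 FPKM in VO. VO 1, the lowest library for 6 scaffold genes, was the highest for both lists, and VO 2, the VO library closest to sham in the scaffold, was also the closest to sham in both. The 5 endothelial markers summed to 161 to 169 FPKM in sham and 176 to 184 FPKM in VO. VO 3 alone had 370 FPKM of adipocyte markers, against at most 0.77 in any other library. The 8 skeletal muscle markers summed to 9.87 to 13.0 FPKM in sham and 2.11 to 8.51 FPKM in VO. Their myosins Myh1, Myh2 and Myh4 were below 0.1 FPKM in every library, while all 3 that passed the filter (Tnni2, Pvalb and Atp2a1) had a lower mean in VO, Tnni2 without overlap (log2 fold change -1.62, limma's adjusted p = 0.28). The 3 ventricular markers summed to 306, 119 and 234 FPKM in sham and 90.8, 104 and 142 FPKM in VO, and both that passed the filter had a lower mean in VO (Myl3 at -0.77 and Myl2 at -1.64 on the log2 scale, with overlap). The 4 red cell markers stood apart in sham 1 (6912 FPKM) and VO 1 (8468 FPKM), against 687 to 2363 FPKM in the other 4 libraries. The part of these cell markers in the scaffold difference was not tested. With VO 1 left out, the scaffold median lay at -0.30 on the log2 scale. Then 3 of the 9 genes were lower at an unadjusted p below 0.05, against 4.91% of all tested genes. Without VO 3, the median was -0.41 and 4 genes were lower with such a p-value, against 7.55% of all tested genes. In both cases 6 genes were lower without overlap, against 15.2% of all tested genes without VO 1 and 19.9% without VO 3, where 3 libraries are compared with 2.

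**Figure D4:**
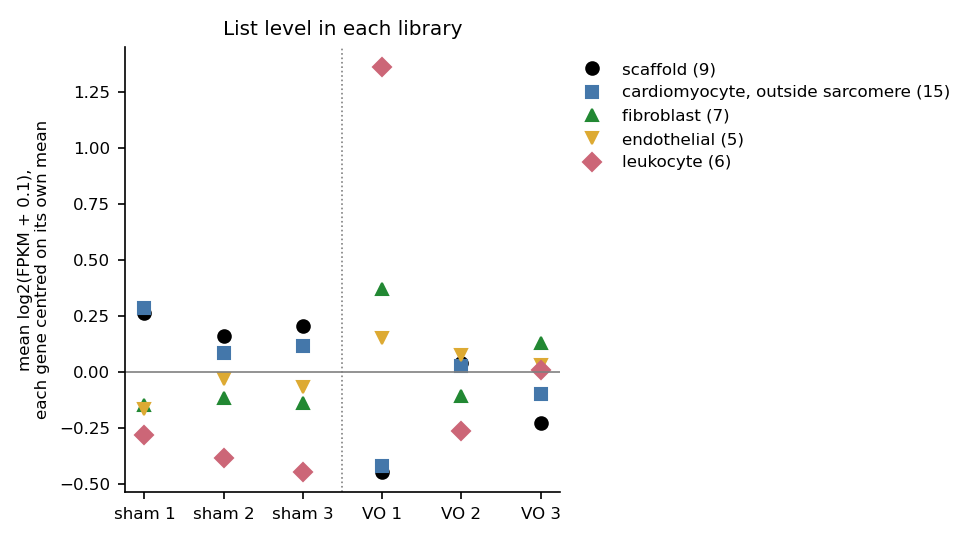
Mean log2(FPKM + 0.1) of 5 gene lists in each library, each gene centred on its own mean over the 6 libraries (vertical axis), with the number of genes in parentheses. The scaffold and the cardiomyocyte genes outside the sarcomere lie close together in each library and are lowest in VO 1 (-0.45 and -0.42), where the leukocyte markers are highest (1.36).

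Genes of other Z-disc proteins were also mostly lower. Of 25 listed genes 20 were tested, of which 18 were lower and 12 were lower with an unadjusted p below 0.05, 10 were lower without overlap, and the median log2 fold change was -0.46. Csrp3, the gene of muscle LIM protein, a partner of telethonin, was read at 245 ± 35.2 FPKM (SD, n = 3) in sham and 143 ± 22.7 FPKM (SD, n = 3) in VO. Pdlim5, a PDZ and LIM domain relative of cypher, had the smallest p-value of the list, with a log2 fold change of -0.64 (adjusted p = 0.28 by limma, SE 0.12). Nrap, a nebulin-related protein of forming myofibrils, had a log2 fold change of -0.67, Synpo2l, an actin-binding protein of the Z-disc, -0.70, Pdlim3 -0.50, Pdlim7 -0.45 and Flnc, the gene of filamin C, -0.47. The relatives that belong to skeletal muscle were hardly present. Myot was read at 0.90 and 0.92 FPKM in sham and VO, Neb at 0.75 and 0.80 FPKM and Actn3 at 1.18 and 0.60 FPKM, all below the filter. The study reports Actn3 as significantly lower in VO by qRT-PCR, whereas here it was not tested.

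At the M-band and the C-terminal end of titin, all 11 tested genes of 12 listed were lower, 6 with an unadjusted p below 0.05, with a median of -0.38. Obsl1, the gene of a cytoskeletal linker protein, had a log2 fold change of -0.41 and the kinase gene Speg -0.58. The myosin chaperone gene Unc45b was at -0.46, the titin-binding ubiquitin ligase gene Trim63 at -0.38 and the methyltransferase gene Smyd1 at -0.34. Limma's adjusted p was at least 0.40 for each of these 5. The third myomesin, Myom3, was at 0.52 FPKM in sham and 0.44 FPKM in VO, below the filter.

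Among partners of the elastic I-band of titin, Ankrd1, a stretch-responsive ankyrin repeat protein, was read at 1731, 1645 and 2045 FPKM in sham and 942, 648 and 766 FPKM in VO. The groups were far apart, with a log2 fold change of -1.21 (adjusted p = 0.27 by limma, SE 0.20). VO 2, the VO library with the highest level of 8 scaffold genes, had the lowest level of Ankrd1. Fhl2, which binds titin in the I-band, was at -0.63, and Fhl1 at 0.08. Of 6 splicing factors, Rbm20, the main regulator of titin splicing in the heart, was at 60.0 ± 5.75 FPKM (SD, n = 3) in sham and 46.1 ± 6.88 FPKM (SD, n = 3) in VO, so VO lay at -0.39 on the log2 scale (limma's unadjusted p = 0.031 and adjusted p = 0.41). The other 5 had no unadjusted p below 0.05 and the median of the 6 was -0.10. The gene-level values hold no measurement of titin isoforms. Among 5 partners of desmin and other intermediate filament genes, Synm, the gene of synemin, was at -0.71 (limma's adjusted p = 0.41). Vim and Nes, which are found mainly outside mature cardiomyocytes, had log2 fold changes of 0.34 and 0.40, with unadjusted p-values above 0.05 in limma. Vim did not overlap, at 131, 141 and 147 FPKM in sham and 240, 153 and 153 FPKM in VO, where VO 1 stood apart. Nes overlapped.

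Fbxl22 encodes an F-box protein that targets alpha-actinin-2 for degradation, and it lay lower than every scaffold gene relative to sham. Its FPKM were 39.6, 34.9 and 32.9 in sham and 17.2, 19.8 and 18.0 in VO, with no overlap. On the log2 scale VO minus sham was -0.96, with a standard error of 0.11 (adjusted p = 0.16, limma). The genes of the thin filament (8 of 8 lower, 5 with an unadjusted p below 0.05, median -0.60) and of the thick filament (6 of 6 lower, 5 with such a p, median -0.65) had a lower median than the scaffold. They included Actc1, Tnnt2, Tnnc1, Tpm1 and Lmod2 of the former and Mybpc3, Myh7, Myl4, Myl7 and Mybphl of the latter. The 15 cardiomyocyte genes outside the sarcomere had a median of -0.27, with 13 lower and 3 at an unadjusted p below 0.05 (Popdc2, Casq2 and Cox6a2). Of 9 muscle transcription factors 5 were lower, with a median of -0.06, and those with an unadjusted p below 0.05 were Srf and Nkx2-5. Srf, which binds CArG boxes, was read at 42.4, 55.4 and 52.9 FPKM in sham and 32.0, 36.6 and 32.3 FPKM in VO, without overlap (log2 fold change -0.57, limma's adjusted p = 0.34). Mef2a, Mef2c and Mef2d had log2 fold changes of 0.01, -0.09 and 0.06. Srf, Nkx2-5, Actc1 and Tnnt2 were among the genes the study followed up from its own sequencing, so their direction is not independent evidence. The study reports each of them as significantly lower in VO by qRT-PCR.

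**Figure D5:**
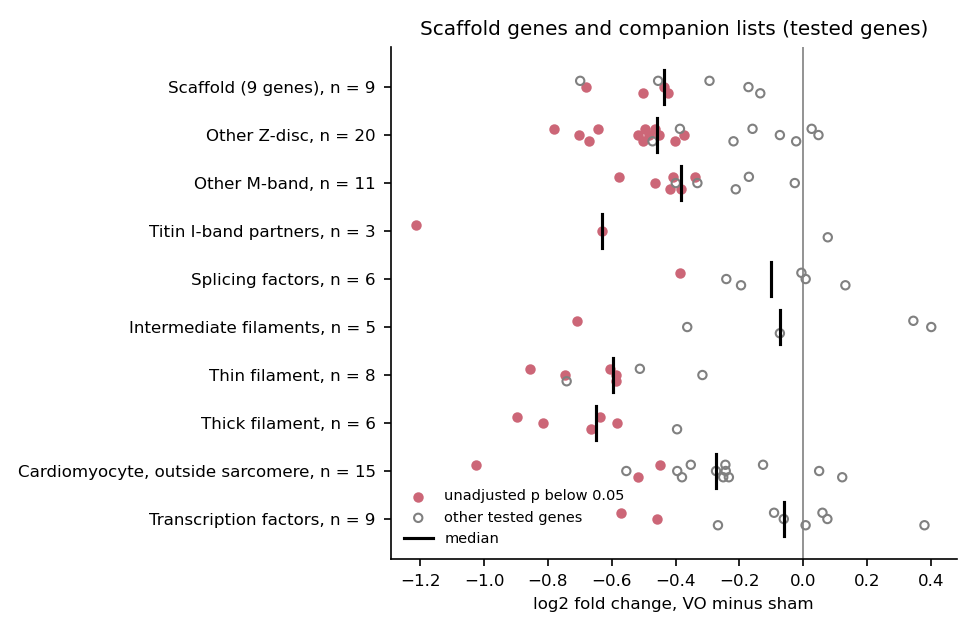
Log2 fold change, VO minus sham (horizontal axis), of every tested gene in the scaffold and in 9 further lists, filled where the unadjusted p was below 0.05, with the median of each list as a black line. The scaffold median (-0.44) lies near those of the other Z-disc (-0.46) and M-band (-0.38) genes, and the medians of the splicing factors, intermediate filament genes and transcription factors lie between -0.10 and -0.06.

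The pattern of the 9 genes over the 6 libraries, taken as the mean of their centred log2 levels, was 0.26, 0.16 and 0.21 in sham and -0.45, 0.04 and -0.23 in VO. Among the members Myom1 (r = 0.99), Des (0.99) and Actn2 (0.92) followed it most closely and Myom2 (0.54) the least, although each member is also a part of the pattern. Of the 4264 tested genes with a mean of at least 10 FPKM, the 5 outside the scaffold with the highest Pearson's r included Gga1, Ctnna1, Gtpbp1 and Srl, each with r above 0.99 over the 6 libraries. The genes were ranked for likeness, and the points share the group difference, so no p-value is given.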

How the data were processed

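The RNA-seq table of 3 sham and 3 VO libraries from P21 right atria was analysed. The authors aligned reads to GRCm38 and counted fragments per gene, and they deposited FPKM computed from counts and gene length. The submitters' processing notes name HISAT2 2.0.5 and featureCounts 1.5.0-p3. Each FPKM times gene length was a whole multiple of 1 step per library (100% of values, tolerance 0.01), which gave 15963082 to 17237903 fragments on genes per library. The library size held in the deposited values was 1.56e+07, 1.72e+07 and 1.63e+07 in sham 1 to sham 3. Fragments on genes there were 1.65e+07, 1.72e+07 and 1.68e+07. In VO 1 to VO 3 the size was 1.81e+07, 1.63e+07 and 1.64e+07, against 1.69e+07, 1.60e+07 and 1.63e+07 fragments. Coordinates were identical to GENCODE's for 98.4% of shared genes. The last line of the table was incomplete and was left out.

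FPKM were scaled by the median of ratios (factor 1.00 in every library), filtered to a mean of at least 1 and taken as log2(FPKM + 0.1). The model was limma 3.58.1 (R 4.3.3) over all 12627 genes (eBayes with trend, two-sided, Benjamini-Hochberg, threshold 0.05), after a check on simulated data. Fold changes are on this log2 scale, which slightly understates those of low genes. Ratios were compared by exact permutation in Python 3.11.15. Alternatives were another pseudocount, filter, scaling or variance model, voom on the recovered fragments, a term for libraries with Xist (2 per group), the replicate block and each library left out. Division by fragment totals and removal of the trend with gene length were chosen after seeing the data.

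The members, the lists and the rule for naming genes were chosen with earlier results of these data known. The rule names all members, up to 6 genes per list and direction with the smallest unadjusted p below 0.05, a few fixed genes and the 5 genes most like the members; Fhl1, Vim, Nes, the Mef2 genes and genes of the skeletal and ventricular marker lists were named after their values were seen. A few genes that the rule names are not reported here. Same-numbered libraries did not deviate together (r = -0.11, 0.01 and -0.03), so the numbers were not taken as pairs.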

Additional observations from a re-analysis of the deposited data

How the results depend on the processing

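No adjusted p of a scaffold gene was below 0.24 under any alternative run. The count of lower scaffold genes with an unadjusted p below 0.05 (4) was 2 with TPM, 1 with quantile normalization and 0 with scaling to the cardiomyocyte genes. With these 3 scalings 3.85%, 6.6% and 0.855% of all tested genes were lower at that threshold. Over the libraries left out the scaffold count ran from 2 (without sham 3, 6.66% of all tested genes) to 6 (without VO 2, 9.61%). The count without overlap (6) was 3, 0 and 1 with the same 3 scalings, where 5.67%, 10.4% and 1.54% of all tested genes were lower without overlap, and 9 without VO 2, where 21.2% were (3 libraries against 2). The cardiomyocyte scaling moved the scaffold median to -0.039 and turned Ttn (0.10), Nebl (0.23) and Myom2 (0.26). TPM moved the median of all genes to 0.13 and that of the scaffold to -0.30. Quantile normalization moved the scaffold median to -0.22 and its distance from the median of all genes from -0.43 to -0.22. With the length trend removed, 5 scaffold genes were lower with an unadjusted p below 0.05, against 8.39% of all tested genes. After division by fragment totals 3 were, against 5% of all tested genes. The scaffold median was then -0.34 and that of all genes 0.081. Myom2 was also above 0 with TPM (0.0045), with quantile normalization (0.051) and without VO 3 (0.023), and with the other libraries left out it went down to -0.28. The Myoz2 to Actn2 difference (-0.03) turned to 0.20 without sham 1 and 0.058 without VO 3, with a low of -0.22. Ttn relative to cardiomyocyte genes (0.03) turned to -0.063 without sham 1, -0.047 without VO 1 and -0.074 without VO 2, with a high of 0.21. The cause was not tested.

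Over all genes, 1020 were lower and 491 higher at an unadjusted p below 0.05. These were 486 and 1085 with TPM, 108 and 2408 with the cardiomyocyte scaling, and 631 and 942 after division by fragment totals. Without each library in turn they ran from 574 (without sham 1) to 1214 lower and from 281 (without sham 1) to 784 (without VO 2) higher, and 620 were lower without VO 1. The higher genes numbered 229 with a minimum mean of 5 FPKM and 840 with no filter. The gene past the adjusted threshold became 2 with a pseudocount of 1 and 3 without the variance trend. It became 0 with quantile normalization, the cardiomyocyte scaling, robust variance, the Xist term and the length trend removed, and in limma 0 also without any 1 library. With the replicate block, limma gave 608 lower and 324 higher genes and 0 past the adjusted threshold. The count of lower scaffold genes was then 4, against 4.82% of all tested genes. Depth was similar between libraries and did not limit the scaffold genes, each with at least 3279 fragments in every library.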
